A study of Mus musculus with 9 samples.

Results

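The nuclear-encoded subunits of oxidative phosphorylation were followed in MH-S cells, a mouse alveolar macrophage line, under lipopolysaccharide (LPS) and under LPS with suramin. Genes were chosen by symbol alone (Nduf followed by a, b, c, s or v and a digit, Sdha to Sdhd, and symbols beginning with Uqcr, Cox4 to Cox8, or Atp5). The rule uses no measured value, but it was set with earlier results of these data known. The rule took 82 of 14771 genes in the deposited table, namely 39 of complex I, 4 of complex II, 8 of complex III, 14 of complex IV and 17 of complex V. Of these 82, 79 had enough counts to be tested, among 11281 tested genes in all. The 3 left out were Ndufb4b, Ndufa4l2 and Cox4i2, which had between 0 and 4.15 counts in a library. The 3 groups held 3 libraries each, numbered 1 to 3. CON cells received culture medium, LPS cells 1 µg/ml LPS for 4 h, and SUR cells 200 µM suramin with 1 µg/ml LPS for 4 h according to the treatment protocol, although the sample label of SUR names suramin alone. No group received suramin without LPS, and all groups are the same cell line. No label says that replicates were separate cultures, so every p-value measures the spread between these libraries, which may be technical.

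Oxidative phosphorylation passes electrons from NADH through complex I and from succinate through complex II to coenzyme Q, then through complex III, cytochrome c and complex IV to oxygen. The protons pumped on the way drive complex V, the ATP synthase. Complex II is built wholly from nuclear genes, whereas the other complexes also hold subunits encoded by mitochondrial DNA, and the table held 0 mitochondrially encoded genes. Macrophages stimulated with LPS are known for a shift from respiration towards glycolysis, in which changes in the use of complexes I and II take part.

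Library totals lay between 15729402 and 16675250 counts, and the subunit genes took 0.942 to 1.12% of the counts of a library. The labels were checked with inflammatory genes. Il1b, the interleukin-1β gene, stood at 4.55, 1.40 and 0.0595 CPM (counts relative to library size, adjusted by TMM, the trimmed mean of M-values) in CON, at 98.3, 223 and 262 CPM in LPS, and at 12.2, 15.9 and 30.2 CPM in SUR. The 3 groups did not overlap in this gene, whose log2 fold change in SUR against CON was 3.26 (adjusted p = 0.142 in edgeR, and 0.00562 with the replicate number as a block). With the block Tnf and Nlrp3 were also higher in SUR than in CON (adjusted p = 0.011 and 0.0174 in edgeR, against 0.226 and 0.301 without it). In CON 1 to 3 Tnf stood at 404, 92.1 and 22.1 CPM and Nlrp3 at 143, 62.9 and 39.1 CPM. Among the CON libraries CON 1 was thus the highest in Tnf and Nlrp3, as it was in Il1b. All 8 macrophage markers on the list were detected, whereas only 3 of 11 alveolar macrophage markers passed the count filter (Itgax, Fabp4 and Siglec1), and the defining Siglecf, Marco and Pparg did not. None of the epithelial, lymphocyte or neutrophil markers passed it, and of 7 fibroblast and endothelial markers only Vwf did.

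Levels between genes are compared in TPM, the deposited unit that is scaled for transcript length. Complex V genes summed to 10607 ± 572 TPM in CON (SD, n = 3 libraries), complex IV to 8344 ± 491, complex I to 7330 ± 247, complex III to 2594 ± 193 and complex II to 930 ± 49.1 TPM. The highest single gene was Cox4i1, the ubiquitous form of a regulatory complex IV subunit, with a mean of 1649 TPM over the 9 libraries, followed by Cox7c with 1282, Atp5b, the catalytic β subunit of the ATP synthase, with 1047, and Cox8a with 1020 TPM. Cox4i1 stood at 1644 ± 156 TPM in CON, 1624 ± 52.7 in LPS and 1679 ± 114 in SUR. Its group means in TPM thus differed by less than the SD of CON or of SUR.

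Paralogs of one subunit were used unequally. Cox4i2, the paralog of Cox4i1, was at or near 0, with 1 count in each of CON 2 and SUR 2 and 0 in the other libraries. Cox6a1, the widely expressed form of subunit 6a, had 712 ± 34.9 TPM in CON against 99.5 ± 6.02 for Cox6a2, the form known from striated muscle. Cox7a2 and Cox7a2l had 217 ± 23.5 and 486 ± 40.4 TPM in CON, whereas Cox7a1, another muscle form, had 8.67 ± 1.603. Ndufa4, named as a complex I gene but now known as a complex IV subunit, had 510 ± 64.9 TPM, and its paralog Ndufa4l2 between 0 and 2 counts. The 3 genes for the identical c-ring subunit of the ATP synthase were all expressed, Atp5g2 at 852 ± 65.5 TPM, Atp5g3 at 730.5 ± 54.0 and Atp5g1 at 385 ± 22.5 in CON. Ndufb4, Ndufb4b and Ndufb4c are near-identical copies whose reads may be shared, so their single levels are uncertain.

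**Figure D1:**
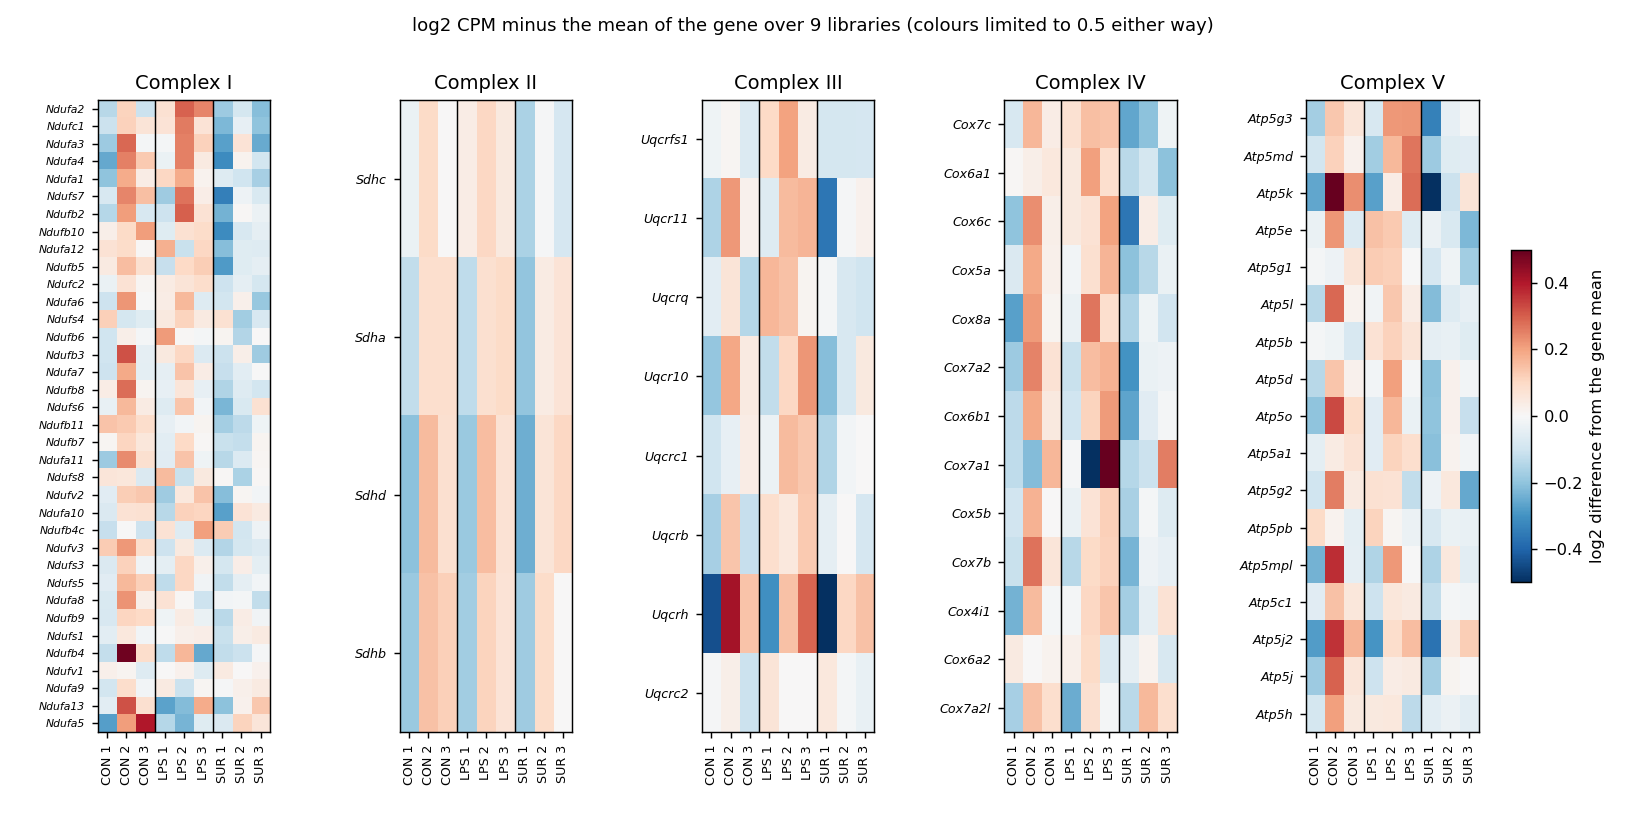
Level of 78 of the 79 tested subunit genes in the 9 libraries, as the difference of its log2 CPM from its own mean, with genes sorted in each complex by SUR against LPS and colours limited to 0.5 either way. The first column of each group is mostly blue: 47 of 79 genes were lowest in the library numbered 1 of all 3 groups. The 2 darkest rows of complexes III and V are Uqcrh and Atp5k.

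Libraries with the same number resembled each other across treatments in these genes. In 47 of 79 genes the library numbered 1 was the lowest of its group in all 3 groups, which was true of 25.8% of all tested genes, and in 0 of 79 it was the highest in all 3 (27.7% of all tested genes). The median difference of number 1 from the mean of numbers 2 and 3 was -0.14 on the log2 CPM scale, against 0.01 over all tested genes. It was -0.25 in complex II, where all 4 genes were lowest in number 1, -0.21 in complex IV, -0.18 in complex V, and -0.10 in complexes I and III. Uqcrh, the hinge subunit of complex III, differed most. It stood at 61.6, 112 and 92.3 CPM in CON 1 to 3, at 67.6, 92.5 and 102 CPM in LPS, and at 59.2, 89.8 and 92.4 CPM in SUR, a difference of -0.62. Number 1 was lowest each time, and the groups overlapped. Atp5k, a small membrane subunit of complex V, followed with -0.51 and Atp5j2 with -0.47. No label says what the number marks. For this reason each comparison is also given with the replicate number as a block, which compares libraries within a number.

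LPS against CON asked what LPS did to these genes, and with TMM scaling the change was small. The 79 tested genes had a median log2 fold change of 0.01 (interquartile range -0.05 to 0.08) against -0.01 over all tested genes. In 69 of 79 genes the groups were within 10% of each other, as were 45.7% of all tested genes. None of the 79 moved by 1.5-fold or more, whereas 13.1% of all tested genes did. In edgeR, 0 genes were called higher and 0 lower at an adjusted p under 0.05 (quasi-likelihood, Benjamini-Hochberg), beside 8.98% and 9.36% of all tested genes. At an unadjusted p under 0.05 it gave 3 higher and 1 lower (13.7% and 15.5% of all tested genes). The calls of limma-voom were 0 higher and 0 lower (8.96% and 9.02%). DESeq2 called 1 higher, Atp5b with an adjusted p of 0.00663, and 0 lower (8.12% and 7.49% of the 14771 genes in the deposited table). Within numbers, 11 genes were higher in all 3 and 11 lower in all 3, beside 30.2% and 32.9% of all tested genes. With the replicate block, 6 were higher and 2 lower, fewer than the 20.1% and 21.7% of all tested genes.

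By complex, the median log2 fold change of LPS against CON was -0.01 in complex I, 0.00 in complex II, 0.09 in complex III, 0.04 in complex IV and -0.01 in complex V. Within numbers 1, 2 and 3 the medians were 0.10, -0.04 and 0.15 in complex III and 0.07, -0.08 and 0.10 in complex IV. They were 0.05, -0.05 and 0.00 in complex I, and 0.08, -0.09 and 0.00 in complex V. Over all 79 genes they were 0.07, -0.06 and 0.03, and 57 genes were lower in LPS within number 2. With the block, 3 of 8 complex III genes were higher. Uqcrfs1, the Rieske iron-sulfur protein that passes electrons within complex III, went from 116, 118 and 112 CPM in CON to 126, 135 and 121 CPM in LPS. Every LPS library was above every CON library, as in 2 of the 79 genes and 15.2% of all tested genes. Its log2 fold change was 0.14 with the block (SE 0.04, adjusted p = 0.0166, edgeR), and 0.15 for Uqcrq (adjusted p = 0.0187) and 0.12 for Uqcrc1, a core protein (adjusted p = 0.0232). In complex V, Atp5b went from 1105, 1094 and 1051 CPM to 1170, 1203 and 1163 CPM, again without overlap, a log2 fold change of 0.12 (adjusted p = 0.00727 with the block in edgeR), and the c-ring gene Atp5g3 had 0.11 (adjusted p = 0.0368 with the block). These 5 differences depended on scaling: with the block, 0 of the 5 was called higher under upper-quartile scaling or on FPKM, and Atp5b and Uqcrc1 were each at -0.02 on FPKM.

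Of the 8 genes called with the block, the 3 in complex I were called under more than 1 scaling. Ndufv3, an accessory subunit of the NADH-oxidising module, stood at 41.3, 44.1 and 40.3 CPM in CON and 35.2, 39.1 and 36.1 CPM in LPS. Ndufb11, a membrane-arm subunit encoded on the X chromosome, stood at 67.1, 66.5 and 64.5 CPM and at 59.1, 60.2 and 61.4 CPM. In both genes every LPS library lay below every CON library, as in 16.8% of all tested genes, and these were the only 2 of the 79. The log2 fold changes were -0.19 for Ndufv3 (SE 0.07) and -0.13 for Ndufb11 (SE 0.06), with adjusted p-values in edgeR of 0.103 and 0.174 without the block and 0.0125 and 0.0423 with it. Both were also lower with upper-quartile scaling (-0.28 and -0.23) and on FPKM (-0.26 and -0.27), with and without the block. Without the block these were 2 lower and 0 higher under upper-quartile scaling (15.1% and 6.78% of all tested genes) and among 6 lower and 0 higher on FPKM (18.1% and 6.02%). With the block, upper-quartile scaling called 21 lower and 1 higher (35.6% and 13%), and FPKM 42 lower and 0 higher (42.8% and 10.6%). The other way went Ndufa2, an accessory subunit of the matrix arm, at 37.4, 44.5 and 38.2 CPM in CON and 43.4, 50.4 and 48.8 CPM in LPS. LPS 1 fell below CON 2, and within numbers the log2 difference was 0.21, 0.18 and 0.35. Its log2 fold change was 0.25 (SE 0.09, adjusted p = 0.0997 in edgeR, 0.00366 with the block and 0.0412 with the block and upper-quartile scaling), and 0.10 on FPKM (adjusted p = 0.0733 with the block in limma).

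**Figure D2:**
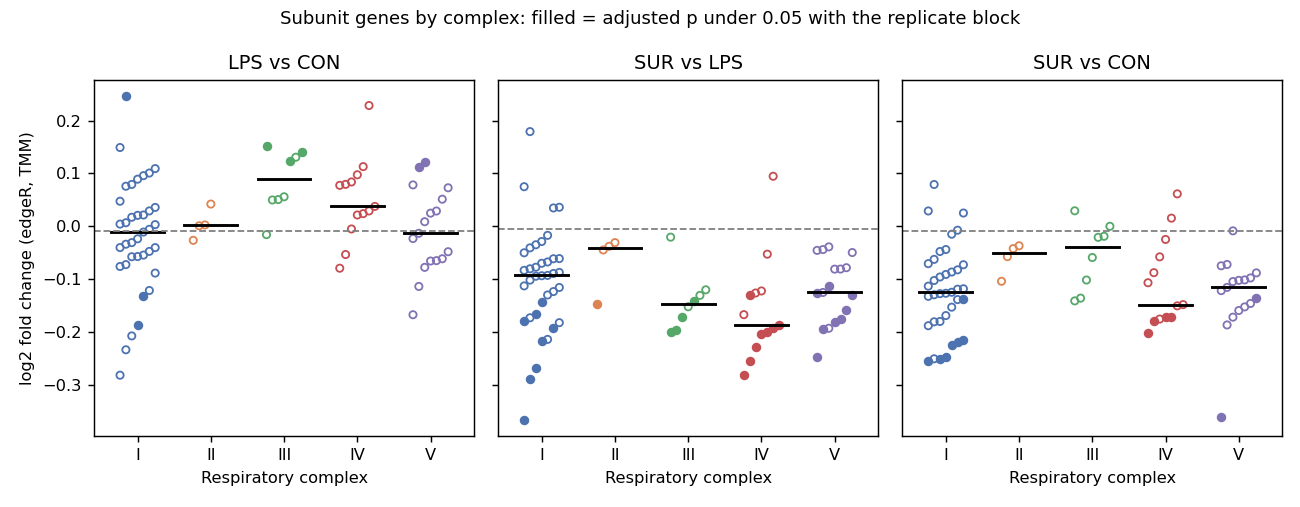
Log2 fold change of each tested subunit gene in edgeR with TMM scaling, by complex (x axis), for LPS against CON, SUR against LPS and SUR against CON; filled points had an adjusted p under 0.05 with the replicate block, black bars are medians of a complex and the dashed line is the median of all tested genes. In SUR against LPS 74 of 79 points lie below 0 and 29 are filled, a direction that turned on FPKM, where 19 of 79 lay below 0.

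SUR against LPS asked what differed when suramin was given with LPS. With TMM scaling, the subunit genes were a little lower in SUR in every complex. The median log2 fold change was -0.12 (interquartile range -0.18 to -0.06), a median change of -8.14%, against -0.01 over all tested genes, and 74 of 79 genes were below 0, as were 51.0% of all tested genes. The medians within numbers 1, 2 and 3 were -0.13, -0.14 and -0.11. In 60 of 79 genes SUR was below LPS in all 3 numbers (35.6% of all tested genes), and in 2 it was above in all 3 (33.7%). This direction depended on the scaling of the libraries: the median was -0.03 with upper-quartile scaling, where all tested genes had 0.08, and 0.06 on FPKM, where all tested genes had 0.11. The subunit genes thus lay 0.12, 0.12 and 0.05 below all genes under the 3 scalings (values from unrounded medians), while their own sign turned.

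edgeR without the block called 3 genes lower and 0 higher in SUR than in LPS, beside 7.93% and 9.29% of all tested genes. At an unadjusted p under 0.05 it gave 11 lower (13.8% of all tested genes) and 0 higher (16.1%). DESeq2 called 5 lower and 0 higher (7.63% and 7.89% of the 14771 genes in the deposited table). The calls of limma-voom were 2 lower and 0 higher (7.9% and 9.05% of all tested genes). Without the block, upper-quartile scaling called 0 lower and 0 higher (5.46% and 14.1% of all tested genes), and FPKM 0 lower and 1 higher (4.59% and 17.5%). In 17 of 79 genes every SUR library lay below every LPS library and in 0 above, beside 17.2% and 17.8% of all tested genes. With the block 29 were lower and 0 higher, 36.7% of the 79 beside 22.7% and 22.6% of all tested genes. By complex the block called 8 of 37 in complex I, 1 of 4 in complex II, 4 of 8 in complex III, 8 of 13 in complex IV and 8 of 17 in complex V. With upper-quartile scaling the block called 7 lower and 2 higher, beside 13% and 32.6% of all tested genes. On FPKM it called 1 lower and 16 higher, beside 9.44% and 39.7%. No gene that was called lower with the block and TMM was called higher under another scaling.

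Complex I had a median of -0.09 in SUR against LPS. Ndufa2 was lower under every scaling once the block was in the fit. It stood at 43.4, 50.4 and 48.8 CPM in LPS and at 36.3, 38.7 and 35.6 CPM in SUR, so the groups did not overlap. The log2 fold change was -0.37 (SE 0.09, adjusted p = 0.0236 in edgeR), and with the block -0.28 under upper-quartile scaling (adjusted p = 0.002) and -0.18 on FPKM (adjusted p = 0.00906 in limma). Against CON, SUR differed by -0.12 (adjusted p = 0.844 in edgeR). Ndufc1, a small membrane-arm subunit, stood at 27.4, 31.2 and 27.4 CPM in LPS and at 22.3, 25.4 and 22.7 CPM in SUR, again without overlap, with a log2 fold change of -0.29 (adjusted p = 0.0695, and 0.00251 with the block in edgeR). Ndufa3 had -0.27 and Ndufa4 -0.22 (adjusted p = 0.00471 and 0.00791 with the block). Some of the core subunits carry the flavin or iron-sulfur clusters. The core subunits named here spread from -0.19 for Ndufs7 (adjusted p = 0.0105 with the block in edgeR) to 0.03 for Ndufv1. Between them lay Ndufv2 and Ndufs8 at -0.08, Ndufs3 at -0.06 and Ndufs1 at -0.03. Ndufs7 is the core subunit with the last iron-sulfur cluster before coenzyme Q, and Ndufv1 binds NADH. Ndufv1 stood at 86.8, 88.1 and 83.0 CPM in LPS and at 89.4, 86.8 and 87.96 CPM in SUR, with overlap. It was called higher with the block under upper-quartile scaling (0.12, adjusted p = 0.02) and on FPKM (0.18, adjusted p = 0.00276).

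With TMM scaling complex II differed least, with a median of -0.04. This order of the complexes depended on the unit. In summed TPM the log2 ratio of SUR to LPS within numbers was 0.05, 0.07 and 0.09 in complex II. In complex IV it was -0.004, 0.02 and 0.03. Sdhc, a membrane anchor, stood at 230, 240 and 231 CPM in LPS and at 200, 222 and 211 CPM in SUR without overlap, a log2 fold change of -0.15 (adjusted p = 0.165, and 0.00821 with the block in edgeR). The flavoprotein Sdha had -0.04, the anchor Sdhd -0.04 and the iron-sulfur subunit Sdhb -0.03. In complex III all 8 genes were lower in all 3 numbers with TMM scaling, and the median was -0.15. Uqcrfs1 stood at 126, 135 and 121 CPM in LPS and at 110 to 111 CPM in all 3 SUR libraries, below every LPS library. The log2 fold change was -0.20 (SE 0.06, adjusted p = 0.0483 in edgeR, 0.00231 with the block). The call without the block was lost when any 1 library other than CON 1 was left out (adjusted p 0.0535 to 0.152). On FPKM the difference was -0.05 (adjusted p = 0.284 with the block in limma). Uqcr11, Uqcrq and Uqcrc1 were lower with the block by TMM, at -0.20, -0.17 and -0.14, and Uqcrc2, the other core protein, was at -0.02.

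Complex IV had the lowest median with TMM scaling, -0.19, with 8 of 13 genes lower with the block. Cox6a1 stood at 140, 156 and 143 CPM in LPS and at 123, 127 and 117 CPM in SUR, and the groups did not overlap. The log2 fold change was -0.26 (SE 0.06, adjusted p = 0.0226 in edgeR, 0.00069 with the block, 0.00821 with the block and upper-quartile scaling). On FPKM it was -0.07 (adjusted p = 0.23 with the block in limma). The call of Cox6a1 without the block was lost without LPS 2, LPS 3 or SUR 3 (adjusted p up to 0.0941), and that of Ndufa2 without LPS 2, LPS 3, SUR 1 or SUR 3 (up to 0.09). Cox7c, a small membrane subunit, stood at 163, 172 and 171 CPM in LPS and at 129, 134 and 153 CPM in SUR, with a log2 fold change of -0.28 (adjusted p = 0.0526, and 0.00168 with the block in edgeR). The core-associated Cox5a and Cox5b had -0.20 and -0.13, both lower with the block, and Cox4i1 -0.12 (adjusted p = 0.102 with the block in edgeR). Cox7a2l, which encodes a supercomplex assembly factor related to subunit 7a, went the other way. It stood at 212, 265 and 250 CPM in LPS and at 229, 281 and 266 CPM in SUR, and within numbers the log2 difference was 0.11, 0.08 and 0.09. The groups overlapped, the log2 fold change was 0.09 (adjusted p = 0.672, and 0.0504 with the block in edgeR), and with the block it was called higher under upper-quartile scaling (0.19, adjusted p = 0.00177) and on FPKM (0.25, adjusted p = 0.000309).

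Complex V had a median of -0.13, and 16 of its 17 genes were lower in SUR in all 3 numbers with TMM scaling. Atp5g3 stood at 204, 250 and 250 CPM in LPS and at 170, 209 and 214 CPM in SUR, so LPS 1 lay among the SUR libraries. Within numbers the log2 difference was -0.26, -0.26 and -0.23. The log2 fold change was -0.25 (SE 0.12, adjusted p = 0.224 in edgeR), and the block changed the call (SE 0.04, adjusted p = 0.00039). It stayed lower with the block and upper-quartile scaling (-0.16, adjusted p = 0.00539), and on FPKM it was at -0.09 (adjusted p = 0.0535). Of the catalytic head, Atp5b was at -0.13 and Atp5a1 at -0.11, both lower with the block (adjusted p = 0.00488 and 0.0197), and Atp5c1, the central stalk, at -0.05 (adjusted p = 0.318 with the block). The c-ring genes Atp5g1 and Atp5g2 had -0.18 (adjusted p = 0.0144 with the block in edgeR) and -0.08 (0.342).

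**Figure D3:**
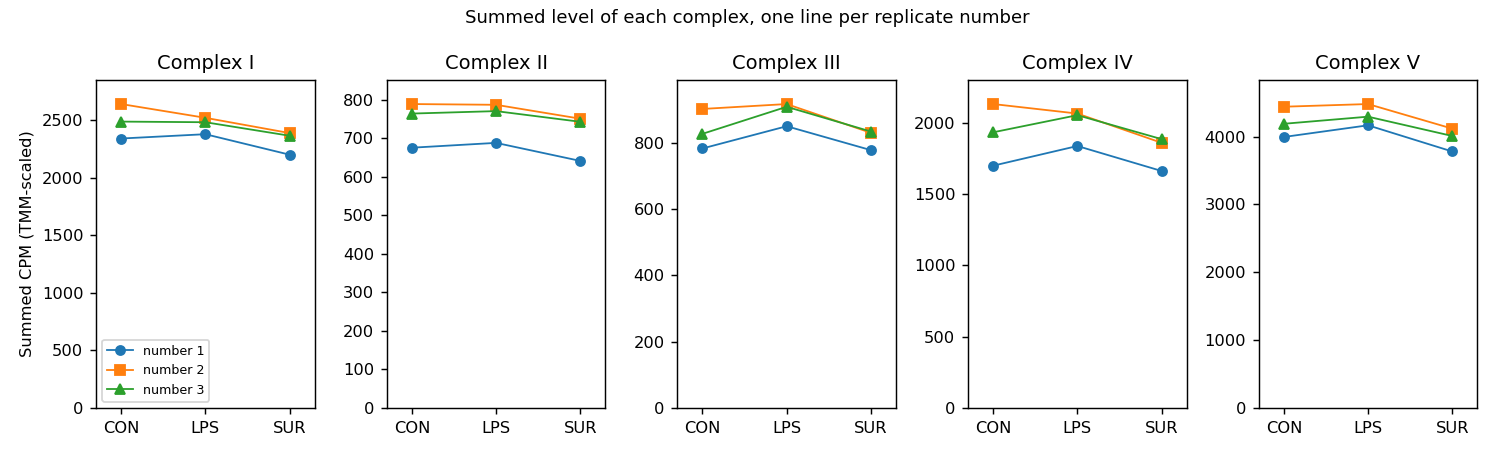
Summed CPM (TMM-scaled counts) of the genes of each complex in CON, LPS and SUR, with 1 line per replicate number and each y axis starting at 0. With this scaling SUR lies below LPS within every number in every complex; in TPM the same sums were higher in SUR than in LPS within all numbers for complexes I, II, III and V.

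Summed over the subunit genes, CPM was 9491, 10902 and 10200 in CON, 9919, 10768 and 10507 in LPS, and 9061, 9945 and 9835 in SUR. The log2 ratio of SUR to LPS within numbers was -0.13, -0.11 and -0.10. In TPM the sum was 28117, 31152 and 30143 in CON, 27271, 28080 and 28224 in LPS, and 27826, 29256 and 29422 in SUR. The same ratio was 0.03, 0.06 and 0.06. The log2 ratio of LPS to CON within numbers was 0.06, -0.02 and 0.04 in CPM, and -0.04, -0.15 and -0.09 in TPM. The share of the counts of a library was 0.981, 1.12 and 1.06% in CON, 0.942, 1.01 and 0.982% in LPS, and 0.944, 1.02 and 1.01% in SUR. The subunit genes thus took a similar part of all counts in LPS and SUR, and a larger part in CON than in LPS within every number. The lower CPM of SUR came with TMM factors of 0.934 to 0.95 in LPS and 1.02 to 1.04 in SUR. In CON the factors were 1.03 to 1.04. RNA per cell and cell number cannot be told apart in such bulk libraries.

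SUR against CON asked how far cells under suramin and LPS stood from untreated cells. It shares the SUR libraries with the comparison above and the CON libraries with LPS against CON, so the 3 comparisons are not independent. The median log2 fold change was -0.11 against -0.01 over all tested genes, and 72 of 79 genes were below 0. This sign held on FPKM (-0.07) and with upper-quartile scaling (-0.12). Within numbers 1, 2 and 3 the medians were -0.06, -0.20 and -0.07, and without CON 2 the median was -0.05. edgeR called 0 genes higher and 0 lower (0.39% and 0.0355% of all tested genes). So did DESeq2 (1.52% and 0.223% of the 14771 genes in the deposited table). The same held for limma-voom (0.408% and 0.0266% of all tested genes), upper-quartile scaling (0.425% and 0.0355%) and FPKM (0.346% and 0.0266%). At an unadjusted p under 0.05 edgeR gave 0 higher and 7 lower (6.24% and 2.99%). With the block 13 were lower and 0 higher, 16.5% of the 79 beside 4.18% and 7.37% of all tested genes. Within numbers, 43 were lower in all 3 and 1 higher in all 3 (25.4% and 23.2%), and in 9 genes every SUR library lay below every CON library and in 0 above (6.67% and 8.35%). The 13 were 7 complex I genes, 4 of complex IV and 2 of complex V. With the block, upper-quartile scaling also called 13 lower and FPKM 4, beside 5% and 2.22% of all tested genes. Both called 0 higher (7.34% and 4.74%). The 4 genes that were lower under TMM, upper-quartile scaling and FPKM alike were Ndufb5, Ndufb10, Ndufb11 and Ndufs7.

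Ndufb10, an accessory subunit of the membrane arm, stood at 78.8, 82.6 and 89.2 CPM in CON and at 62.0, 73.1 and 74.9 CPM in SUR, without overlap. Its log2 fold change was -0.25 (adjusted p = 0.358, and 0.00437 with the block in edgeR), and -0.23 on FPKM (adjusted p = 0.0219 with the block in limma). Ndufb11 lay between 64.5 and 67.1 CPM in CON, between 59.1 and 61.4 CPM in LPS, and at 54.1, 55.6 and 59.9 CPM in SUR. SUR 3 lay among the LPS libraries, and all SUR libraries lay below CON. Its log2 fold change against CON was -0.23 (adjusted p = 0.2, and 0.0124 with the block in edgeR). Ndufb5 was at -0.22 and Ndufs7 at -0.25 (adjusted p = 0.0145 and 0.0101 with the block). The largest difference from CON was that of Atp5k, at -0.36 (SE 0.22, adjusted p = 0.747 in edgeR and 0.0387 with the block), which stood at 24.5, 42.2 and 34.5 CPM in CON and at 20.8, 27.3 and 30.8 CPM in SUR, with overlap. In complex III, whose genes had their highest LPS median, SUR and CON differed by a median of -0.04.

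**Figure D4:**
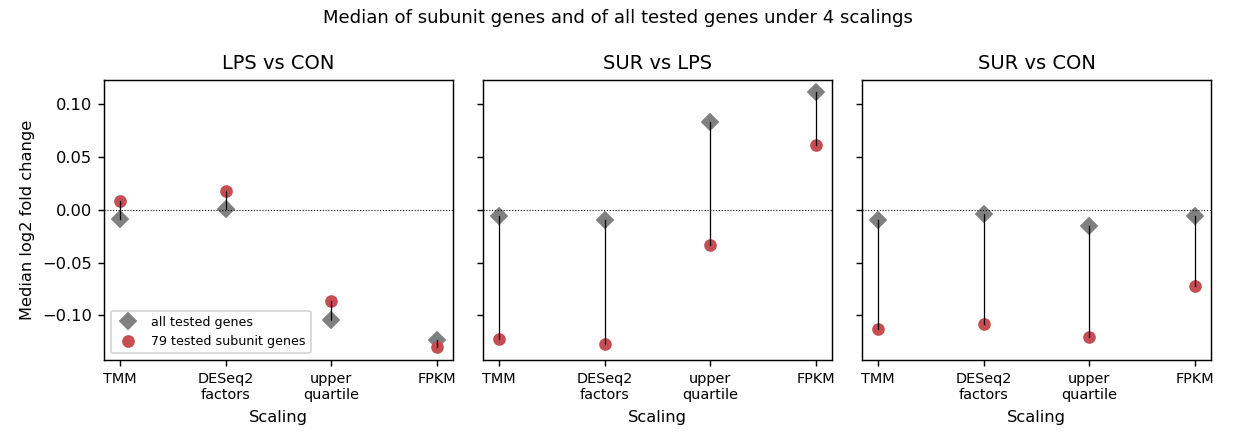
Median log2 fold change (y axis) of the 79 tested subunit genes (circles) and of all tested genes (diamonds) with TMM, DESeq2 size factors, upper-quartile scaling and FPKM (x axis), for the 3 comparisons. In SUR against LPS the circle moved from -0.12 with TMM to 0.06 on FPKM while staying below the diamond under each of the 4 scalings; in SUR against CON it stayed below 0.

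The subunit transcripts are short. Median transcript length, taken from the GENCODE mouse release M21 annotation, was 725 nt over the 76 of 79 genes with a value and 2694 nt over all tested genes. In SUR against LPS genes with short transcripts had lower medians with TMM scaling, in classes of all tested genes that include the subunit genes. The median log2 fold change was -0.13 in the 157 tested genes of up to 600 nt. It was -0.09 in 308 genes above that and up to 800 nt, and 0.01 in 7418 genes over 2000 nt. Subunit genes had -0.16 (27 genes), -0.12 (18 genes) and -0.10 (6 genes) in the same length classes. In the classes between, the 12 subunit genes of 801 to 1200 nt had -0.07 and the 13 of 1201 to 2000 nt had -0.08. All tested genes had -0.05 and -0.01 there. Across the 76 genes, log2 fold change and length had a Pearson r of 0.33 and a Spearman rho of 0.43, as a description over genes that share the same libraries, whereas over all 10992 tested genes with a length they had 0.05 and 0.07. In SUR against CON the values were 0.38 and 0.34 for the subunit genes and 0.14 and 0.28 for all genes. There the median of all genes of up to 600 nt was -0.12, beside -0.13 for the subunit genes of that length, and that of all genes over 2000 nt was 0.01, beside -0.08. The difference of number 1 from numbers 2 and 3 was -0.12 for all genes of up to 600 nt and 0.02 for those over 2000 nt. For the subunit genes it was -0.15 and -0.19 in these classes, and -0.08 in the 13 genes of 1201 to 2000 nt. Across the 76 genes this difference and length had a Pearson r of 0.23 and a Spearman rho of 0.18. Over all genes with a length the values were 0.06 and 0.07. The part of transcript length in these results was not tested.

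**Figure D5:**
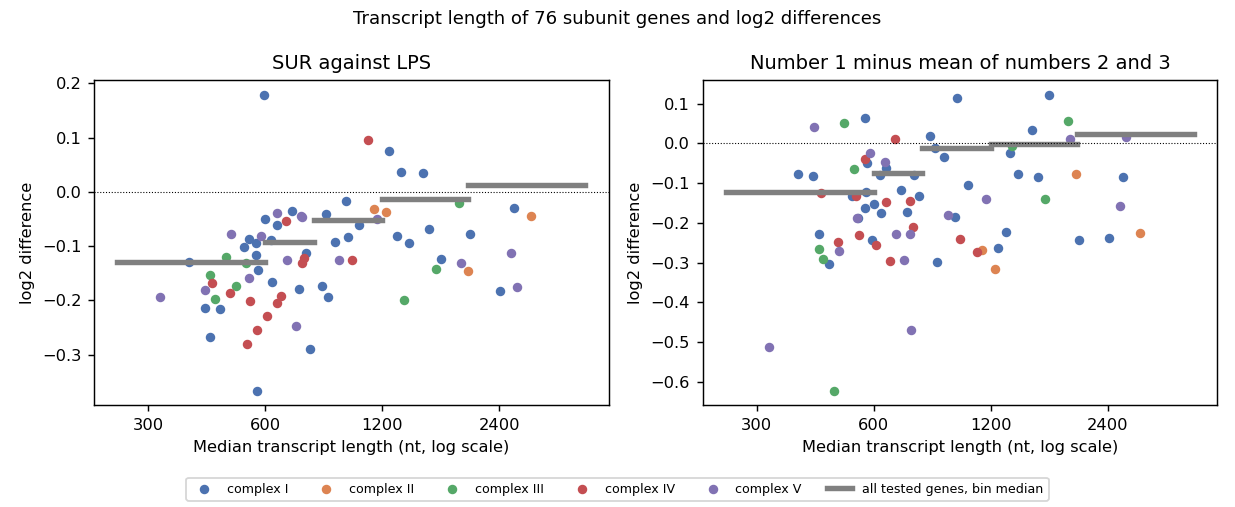
Log2 difference of each subunit gene (points, coloured by complex) against its median transcript length (log axis), for SUR against LPS (left, edgeR with TMM) and for the libraries numbered 1 against numbers 2 and 3 (right); grey bars are the medians of all tested genes in 5 length classes. The grey bars rise with length in both panels, from -0.13 to 0.01 on the left and from -0.12 to 0.02 on the right.

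Promoter windows are shown for 4 of the 7 genes lower in SUR than in LPS with the block under both TMM and upper-quartile scaling. They are Uqcrfs1, Cox6a1, Atp5g3 and Ndufc1, whereas Cox7c, Ndufa2 and Ndufa3 are not printed. Cox7a2l, which went the other way, is also shown. Windows hold 250 bases before to 50 bases after a RefSeq gene start on GRCm38.p6, 5′ to 3′ on the strand of the gene, and capitals mark letters that match a searched motif on either strand. The windows are chr13:30545267-30545566, chr5:115348909-115349208, chr2:73911277-73911576, chr3:51408906-51409205 and chr17:83514284-83514583 in the order printed, all on the minus strand in RefSeq (the deposited table gives the plus strand for Uqcrfs1).
Uqcrfs1: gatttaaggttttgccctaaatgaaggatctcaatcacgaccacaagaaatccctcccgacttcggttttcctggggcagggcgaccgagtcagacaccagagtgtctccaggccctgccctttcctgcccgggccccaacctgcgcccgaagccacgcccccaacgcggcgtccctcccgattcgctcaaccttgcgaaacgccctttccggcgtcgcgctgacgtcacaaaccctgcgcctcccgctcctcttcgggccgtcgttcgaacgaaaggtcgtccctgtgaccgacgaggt
Cox6a1: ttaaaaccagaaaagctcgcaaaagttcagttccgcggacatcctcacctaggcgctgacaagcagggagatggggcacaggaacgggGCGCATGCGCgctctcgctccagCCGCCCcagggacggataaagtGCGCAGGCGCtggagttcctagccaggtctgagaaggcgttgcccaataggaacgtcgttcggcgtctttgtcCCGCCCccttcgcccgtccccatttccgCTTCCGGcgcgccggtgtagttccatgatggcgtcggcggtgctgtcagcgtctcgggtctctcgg
Atp5g3: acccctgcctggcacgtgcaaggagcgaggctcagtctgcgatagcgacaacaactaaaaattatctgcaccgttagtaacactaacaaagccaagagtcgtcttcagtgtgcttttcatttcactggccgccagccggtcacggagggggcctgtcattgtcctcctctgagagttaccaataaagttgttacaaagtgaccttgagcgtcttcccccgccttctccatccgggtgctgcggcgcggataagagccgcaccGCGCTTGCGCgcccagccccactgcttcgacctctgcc
Ndufc1: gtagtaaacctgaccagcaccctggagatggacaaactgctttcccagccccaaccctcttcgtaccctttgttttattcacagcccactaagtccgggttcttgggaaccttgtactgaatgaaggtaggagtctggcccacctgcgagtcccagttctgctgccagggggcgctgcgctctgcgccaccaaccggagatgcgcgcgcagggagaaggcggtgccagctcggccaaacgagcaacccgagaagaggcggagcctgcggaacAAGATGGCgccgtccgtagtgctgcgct
Cox7a2l: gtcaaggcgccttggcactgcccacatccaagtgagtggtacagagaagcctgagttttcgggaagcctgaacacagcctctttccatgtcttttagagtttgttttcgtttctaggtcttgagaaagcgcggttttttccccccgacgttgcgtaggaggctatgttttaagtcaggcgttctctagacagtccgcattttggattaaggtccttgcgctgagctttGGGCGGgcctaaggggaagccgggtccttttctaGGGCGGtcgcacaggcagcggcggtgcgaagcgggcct
Among the motifs searched, Cox6a1 held 2 matches to the NRF1 letters, 1 CCGGAAG and 2 GGGCGG, Atp5g3 1 NRF1 match, Ndufc1 1 AAGATGGC after its start, and Cox7a2l 2 GGGCGG. Uqcrfs1 held none of them.

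The motifs are those of factors known to act on genes of the respiratory chain, namely NRF1 (GCGC, any base, then TGCGC), the ETS factors that include GABPA (CCGGAAG), YY1 (AAGATGGC) and SP1 (GGGCGG), searched on both strands. RefSeq windows were matched by gene ID for 66 of the 82 genes, with 71 windows. The NRF1 letters were in 25.4% of these windows and in 4.60% of all 32851 windows of the same length, the ETS letters in 23.9% and 8.86%, the YY1 letters in 14.1% and 2.75%, and the SP1 letters in 38.0% and 35.7%. The NRF1 letters were found in genes of every complex, with 1 gene each in complexes III and IV, and all 10 genes with the YY1 letters belonged to complexes I and V. Tested genes with the NRF1 letters had a median log2 fold change of -0.08 in SUR against LPS (17 genes, from -0.26 to 0.18), and those without them -0.13 (48 genes, from -0.29 to 0.09). A match here is a match of letters and not a measured binding site.

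Other genes of the pathway were read from lists, in edgeR with TMM unless stated. Their counts stand beside the shares of all tested genes given above, which with the block were 20.1% higher and 21.7% lower in LPS against CON, 22.6% and 22.7% in SUR against LPS, and 7.37% and 4.18% in SUR against CON. Among 49 tested assembly factors of the complexes, 0 were higher and 3 lower in LPS than in CON, and 3 were higher and 0 lower in SUR than in LPS. With the block these counts were 1 and 12, and then 10 and 0. The 12 are 24.5% and the 10 are 20.4% of the list, near the shares of all tested genes. In SUR against LPS, FPKM called 10 higher and upper-quartile scaling 6, with 0 lower in both, and in LPS against CON they called 17 and 10 lower and 0 higher. Sco1, a copper chaperone of complex IV, stood at 21.9 ± 0.455 CPM in CON, 17.6 ± 1.079 in LPS and 23.1 ± 0.645 in SUR (SD, n = 3), with log2 fold changes of -0.32 in LPS against CON (adjusted p = 0.0188) and 0.39 in SUR against LPS (adjusted p = 0.00762). Taco1, an activator of the translation of a mitochondrially encoded complex IV subunit, had -0.55 and 0.61 (adjusted p = 0.0424 and 0.0298). Tmem126b, a complex I assembly factor, had -0.59 in LPS against CON (adjusted p = 0.0316) and 0.46 in SUR against LPS (adjusted p = 0.085). Cox15, an enzyme of heme A synthesis, had 0.19 in SUR against LPS (adjusted p = 0.0367).

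Among 17 tested genes of mitochondrial biogenesis and mtDNA expression, 4 were higher and 3 lower in LPS than in CON, a split of 4 and 6 with the block, 2 and 5 with upper-quartile scaling and 2 and 6 on FPKM. Ppargc1b, a coactivator of respiratory genes, stood at 27.6 ± 2.24 CPM in CON, 19.5 ± 2.08 in LPS and 31.3 ± 3.13 in SUR, with log2 fold changes of -0.50 (adjusted p = 0.0132) and 0.68 (adjusted p = 0.00351). The mtDNA helicase gene Twnk had -0.64 and 0.58 (adjusted p = 0.00577 and 0.011). Polg2, the accessory subunit of the mtDNA polymerase, had -1.05 in LPS against CON (adjusted p = 0.0129). Myc went from 0.499 ± 0.203 CPM in CON to 7.67 ± 4.07 in LPS and 1.076 ± 0.54 in SUR, a log2 fold change of 3.92 and then -2.83 (adjusted p = 0.00184 and 0.00692). The other 3 that were higher in LPS were Gabpb1 (0.43, adjusted p = 0.00754) and Gabpa (0.37, adjusted p = 0.0299), the subunits of the ETS factor GABP, and Pprc1, a coactivator related to Ppargc1b (0.27, adjusted p = 0.0353). In SUR against LPS they had -0.25, -0.31 and -0.36 (adjusted p = 0.079, 0.0619 and 0.0114). Of these, only Gabpb1 was called higher in LPS under upper-quartile scaling and on FPKM. In SUR against LPS, 3 of the 17 were higher and 2 lower, and with the block 4 and 4. Nrf1 itself was at 0.01 and -0.08 (adjusted p = 0.975 and 0.765).

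Among 18 genes of coenzyme Q synthesis and other electron entry, 2 were higher in LPS than in CON and the same 2 were lower in SUR than in LPS, under TMM, upper-quartile scaling and FPKM. Gpd2, the mitochondrial glycerol-3-phosphate dehydrogenase that feeds electrons to coenzyme Q, stood at 61.6 ± 2.40, 101 ± 3.35 and 67.7 ± 2.295 CPM in CON, LPS and SUR, with log2 fold changes of 0.72 and -0.58. Coq10b, a coenzyme Q-binding protein, had 1.21 and -0.98. In LPS against CON, 0 of the 18 were lower with TMM, 3 on FPKM and 2 with upper-quartile scaling. With the block 2 were higher and 1 lower, then 3 lower in SUR against LPS. Of 23 genes of pyruvate entry and the TCA cycle, 2 were higher in LPS than in CON, Dlst (0.31, adjusted p = 0.00362) and Dld (0.20, adjusted p = 0.0491, and 0.26 under upper-quartile scaling), which both belong to the 2-oxoglutarate dehydrogenase complex, and 1 was lower in SUR than in LPS, Dlst (-0.34, adjusted p = 0.00297). With the block 6 of these 23 were higher and 1 lower in LPS against CON, and 1 was higher and 9 lower in SUR against LPS. Of 26 protein import genes 1 was lower in LPS than in CON (Timm22, -0.26) and 3 were lower in SUR than in LPS (Tomm70a, Timm17a and Timm44, -0.21 to -0.26), with 0 called in SUR against LPS under upper-quartile scaling or FPKM. With the block 4 of the 26 were higher and 1 lower in LPS against CON, and 0 were higher and 10 lower in SUR against LPS. None of 13 carriers was called in either comparison by edgeR without the block, and with it 1 was higher in LPS than in CON and 5 were lower in SUR than in LPS. Of the 4 chain proteins that the symbol rule missed, Ndufab1, Cyc1, Cycs and Atpif1, 0 were called without the block, and with it 1 was higher in LPS than in CON and 3 were lower in SUR than in LPS. In SUR against CON, 0 genes of these lists were called without the block. With it, 1 assembly factor, 3 genes of the TCA list, 1 of the coenzyme Q list, 3 carriers and 4 import genes were lower, and 1 gene of the coenzyme Q list was higher.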

How the data were processed

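RNA-seq of 9 libraries in 3 groups was read from 1 deposited table. Trizol RNA and MGIEasy libraries were used, per the labels' protocols. HISAT2 2.0.4 and GRCm38 are named in the submitters' processing notes, whereas for counter, annotation and strand setting no label or header read here gives a name. Deposited expected counts (estimated reads per gene, 93.4% of values whole) were rounded before testing. The deposited FPKM and TPM values are the authors' length-scaled units, per the file headers; TPM served to compare levels between genes and FPKM as an alternative.

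Genes were kept by filterByExpr, scaled by TMM, and tested in edgeR 4.0.16 under R 4.3.3 by quasi-likelihood, fitting the 9 libraries together (6 residual degrees of freedom, 4 with the block), with Benjamini-Hochberg adjustment over 11281 genes. Standard errors were derived from the F statistic. Log2 CPM within numbers used a prior count of 2, and FPKM was taken as log2(FPKM + 1), which understates changes of low genes. limma 3.58.1, voom and DESeq2 1.42.0 were alternatives, beside other scalings, no count filter, 2-group fits, left-out libraries and a replicate block. The scripts were tested on simulated data. Deviations from the group means were correlated between same-numbered libraries over tested genes, at 0.70 to 0.80 for number 1, 0.49 to 0.56 for number 2 and 0.43 to 0.59 for number 3, so the numbers, which come from the sample titles, were taken to pair the libraries.

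The subunit genes, lists and tests were chosen with earlier results of these data known. Any subunit gene may be named, and of the other lists up to 4 called genes per comparison with the largest change. Gabpb1, Gabpa and Pprc1 in LPS against CON were named beyond these. The genes of the small or uncalled lists, Nrf1 and transcript length classes were added after values were seen. Reads of near-identical copies and processed pseudogenes may be shared. Lengths are medians over protein-coding transcripts of GENCODE M21, and promoters are from RefSeq. Plots used matplotlib 3.10.9 and Python 3.11.15. The values of 1 subunit gene are not reported here.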

Additional observations from a re-analysis of the deposited data

How the results depend on the processing

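Counts are of subunit genes called higher or lower and medians are log2 fold changes. LPS against CON, at 0 higher, 0 lower and a median of 0.01, became 0 higher and 2 lower with a median of -0.086 under upper-quartile scaling, 6 lower with -0.13 on FPKM, 1 higher in DESeq2, and 2 higher and 1 lower without the 3 libraries numbered 1 (15.7% and 14.4% of all tested genes). Leaving out 1 library gave 0 to 1 higher (1 without CON 2), 0 to 1 lower (1 without CON 1) and a median of -0.030 (without CON 1) to 0.076 (without CON 2). SUR against LPS, at 3 lower and -0.12, became 0 lower with -0.033 under upper-quartile scaling, 1 higher and 0 lower with 0.061 on FPKM, 5 lower in DESeq2, 1 lower when fitted on the 2 groups only, 12 lower without the libraries numbered 1 (15.2% of the 79 and also of all tested genes), and a median of -0.14 without a count filter. Leaving out 1 library gave 0 to 4 lower and a median of -0.16 to -0.092, with 0 lower without LPS 2 or LPS 3, 1 without SUR 1 or SUR 3, and 2 without CON 3 or SUR 2. SUR against CON kept 0 calls under each setting without the block, with a median of -0.18 (without CON 1) to -0.05 (without CON 2) over the left-out libraries.

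The replicate block, which pairs libraries by number, gave 6 higher and 2 lower in LPS against CON, 29 lower in SUR against LPS and 13 lower in SUR against CON, and moved none of the 3 medians by more than the spread between replicates. Its changes of call for the other gene lists, Il1b, Tnf and Nlrp3 are given above, as are its shares of all tested genes. Chosen after seeing the data, the block was joined with 3 other settings. With upper-quartile scaling it gave 1 higher, 21 lower and a median of -0.087 in LPS against CON. It then gave 2 higher, 7 lower and -0.036 in SUR against LPS, and 13 lower in SUR against CON (5% of all tested genes). On FPKM it gave 42 lower and -0.13, then 16 higher, 1 lower and 0.061, and then 4 lower (2.22% of all tested genes). Without the libraries numbered 1 it gave 5 higher and 6 lower, then 28 lower, and then 17 lower, beside 20.5%, 18.6%, 21.3% and 3.49% of all tested genes. The cause of these shifts was not tested; under upper-quartile scaling and FPKM the median of all genes stood at -0.10 and -0.12 in LPS against CON and at 0.08 and 0.11 in SUR against LPS. Depth limits the genes with the fewest counts, such as Cox7a1 with 6 to 17 counts a library.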
